A study of Rattus norvegicus with 4 samples.

Results

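The proteasome genes of rat cartilage were taken as the rows of the gene table whose symbol begins with Psm, a letter from a to g and a number. The rule gave 48 of the 13554 genes listed. They were compared between articular cartilage, the lining of joint surfaces, and xiphoid cartilage, the lower tip of the sternum. Both came from Sprague-Dawley rats of 8 to 10 weeks, with 2 libraries per tissue and no treatment or genetic change given in the labels. The labels name neither the joint nor the sex, and nothing says whether libraries were separate animals or pools, so p-values rest on the spread among these 4 samples alone, and that spread may be technical. RNA was sequenced, and the value of a gene in a library is an estimated read count.

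The proteasome is the main protein-degrading machine of the cell. Its core particle is a barrel of outer alpha rings and inner beta rings, and the cutting sites sit in 3 of the beta subunits. A regulatory particle caps the barrel. It recognises ubiquitin-tagged proteins, removes the ubiquitin, unfolds the protein with a ring of ATPases and feeds it into the core. Interferons induce 3 alternative cutting subunits, Psmb8, Psmb9 and Psmb10, which replace Psmb5, Psmb6 and Psmb7 to form the immunoproteasome, known for making peptides for MHC class I molecules. Chondrocytes secrete large amounts of matrix protein, and misfolded chains that leave the secretory pathway are degraded by proteasomes.

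By role, the members held 7 alpha subunits, the copy Psma3l, 7 constitutive beta subunits, 3 inducible beta subunits and the thymic beta subunit Psmb11. They also held 6 regulatory ATPases, 11 other regulatory subunits, 6 assembly chaperones and 5 genes for other activators and an inhibitor. Psmc3ip, whose product binds a proteasome ATPase and works in meiotic recombination, matched the symbol rule without being a subunit. Of the 48 members, 47 passed the low-count filter. Psmb11, which is specific to the thymus, had 1 count in each of 2 libraries and was not tested. Psma8 and Psmg3 were not analysed here. In the RefSeq gene table of assembly GRCr8, 19 members had at least 1 annotated pseudogene or like gene with a numbered name, 52 in all with up to 10 for Psmb3. Like genes without a number, such as Psma3l, were not in this count. Reads can be split between such copies, so the levels of those members are uncertain.

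Promoters are printed because the inducible genes are known for interferon-responsive sequences. They are given for the 3 inducible subunits, for Psmb5, which Psmb8 replaces, for the interferon-induced activator gene Psme2, for Psma5, an alpha subunit that differed between the tissues, and for Psme4, the member with the greatest difference. Each window runs from 250 bases before to 50 bases from the annotated start on, 5′ to 3′ on the gene's strand, from RefSeq on GRCr8, which differs from the build of the counts. Capitals mark matches, on either strand, to the box CCAAT bound by NF-Y, to TGACNNNGC, the core of the antioxidant response element, to a pair of GAAA boxes with 2 bases between them, bound by interferon regulatory factors, and to TTCNNNGAA, bound by STAT factors.
Psmb8 (chr20:4656982-4657281, minus strand): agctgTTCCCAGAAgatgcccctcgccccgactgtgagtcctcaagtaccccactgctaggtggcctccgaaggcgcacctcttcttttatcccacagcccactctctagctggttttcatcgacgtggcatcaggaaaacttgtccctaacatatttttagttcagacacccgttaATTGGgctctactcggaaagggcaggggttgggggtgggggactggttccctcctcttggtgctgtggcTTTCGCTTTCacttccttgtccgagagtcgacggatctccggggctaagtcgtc
Psmb9 (chr20:4668750-4669049, plus strand): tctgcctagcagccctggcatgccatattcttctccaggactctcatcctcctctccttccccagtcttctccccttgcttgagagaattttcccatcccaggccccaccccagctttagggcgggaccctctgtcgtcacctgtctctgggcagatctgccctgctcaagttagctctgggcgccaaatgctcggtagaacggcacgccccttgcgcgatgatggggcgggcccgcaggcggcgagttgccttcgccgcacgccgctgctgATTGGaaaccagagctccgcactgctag
Psmb10 (chr19:50743243-50743542, minus strand): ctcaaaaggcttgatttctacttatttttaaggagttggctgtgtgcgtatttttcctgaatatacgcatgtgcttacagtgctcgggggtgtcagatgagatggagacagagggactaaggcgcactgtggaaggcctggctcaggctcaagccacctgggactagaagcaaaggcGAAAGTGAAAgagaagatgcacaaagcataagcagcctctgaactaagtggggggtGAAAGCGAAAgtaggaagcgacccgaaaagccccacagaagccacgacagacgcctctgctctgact
Psme2 (chr15:33052702-33053001, minus strand): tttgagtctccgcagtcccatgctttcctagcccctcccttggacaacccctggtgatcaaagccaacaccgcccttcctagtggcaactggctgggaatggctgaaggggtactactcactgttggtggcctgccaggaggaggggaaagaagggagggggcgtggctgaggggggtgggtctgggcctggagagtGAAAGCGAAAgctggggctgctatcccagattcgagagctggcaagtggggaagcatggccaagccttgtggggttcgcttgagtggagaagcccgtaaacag
Psmb5 (chr15:32047330-32047629, minus strand): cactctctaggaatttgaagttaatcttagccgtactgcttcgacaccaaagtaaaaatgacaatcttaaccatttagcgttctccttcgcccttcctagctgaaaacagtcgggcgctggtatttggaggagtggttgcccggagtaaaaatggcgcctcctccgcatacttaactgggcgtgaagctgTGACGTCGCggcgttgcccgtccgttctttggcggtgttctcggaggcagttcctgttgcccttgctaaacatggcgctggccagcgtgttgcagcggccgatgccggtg
Psma5 (chr2:198584255-198584554, plus strand): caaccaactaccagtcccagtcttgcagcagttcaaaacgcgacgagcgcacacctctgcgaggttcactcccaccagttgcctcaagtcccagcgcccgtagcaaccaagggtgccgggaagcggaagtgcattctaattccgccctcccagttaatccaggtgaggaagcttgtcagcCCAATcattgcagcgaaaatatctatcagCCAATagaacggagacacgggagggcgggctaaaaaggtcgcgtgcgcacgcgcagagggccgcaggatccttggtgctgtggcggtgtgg
Psme4 (chr14:108706393-108706692, plus strand): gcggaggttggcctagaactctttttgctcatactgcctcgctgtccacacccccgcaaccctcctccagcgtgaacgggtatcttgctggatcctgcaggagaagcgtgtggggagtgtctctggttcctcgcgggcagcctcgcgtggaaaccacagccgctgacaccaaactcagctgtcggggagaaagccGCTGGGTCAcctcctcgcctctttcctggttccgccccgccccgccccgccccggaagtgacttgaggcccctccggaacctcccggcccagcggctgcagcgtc

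Promoter windows were matched for 42 of the 48 members. The pair of GAAA boxes was matched in Psmb8, at the start itself, in Psmb10, at 73 and 17 bases before the start, and in Psme2, at 53 bases before it. It was in 7 of the 42 windows (16.7%), against 2.83% of the 9143 promoters of genes tested, at 1 start per gene. Those 7 also held Psma4, Psmb3, Psmd7 and Psmg4. The Psmb9 window had no such match. TTCNNNGAA was in 4 of the 42 windows (9.52%), against 6.57% of the promoters of genes tested, once in Psmb8 at 245 bases before the start and otherwise in Psmc6, Psmd3 and Psmd7. CCAAT was in 9 of the 13 windows of constitutive core genes (69.2%), among them Psma5 at 70 and 41 bases before the start, in 5 of the 14 windows of regulatory particle genes (35.7%) and in 37.9% of the promoters of genes tested. TGACNNNGC was in 8 of the 42 windows (19%), against 15% of the promoters of genes tested, and Psmb5 at 60 and Psme4 at 55 bases before the start were among them. None of the matches in the 7 printed windows overlapped another. A match describes letters in this window and is not evidence of binding.

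The totals were 7351005 to 8434821 counts per library, and 1 count was worth 0.118 to 0.137 CPM, the count scaled to library size. Chondrocyte markers were present in all libraries, and of 10 tested, 5 had the higher level in articular and 3 in xiphoid cartilage. Those 3 were Matn1 (8.39-fold), Cnmd (3.20-fold) and Comp (1.40-fold), while Col2a1 took 10.3% and 8.57% of the articular counts against 1.65% and 1.48% of the xiphoid counts. The 2 dissections also held other cells. In articular cartilage the summed levels were 1900 to 1987 CPM for osteoclast markers (4 of 4 tested higher there), 2080 to 3275 for osteoblast and osteocyte markers (6 of 6), 175 to 183 for erythroid markers (6 of 6) and 114 to 118 for genes of dividing cells (8 of 8). The same lists summed to 142 to 151, 14.8 to 16.9, 6.57 to 6.70 and 16.4 to 21.7 CPM in xiphoid cartilage, where Calcr, Phex and Sost had no count. Skeletal muscle markers summed to 8054 to 8378 CPM in xiphoid and 24.6 to 34.7 in articular cartilage (9 of 9 higher in xiphoid cartilage, Myh2 without a count in articular cartilage), and adipocyte markers to 2263 to 2896 and 65.5 to 81.5 (7 of 7, Lep without a count in articular cartilage). Fibroblast and perichondrium markers summed to 12803 to 12964 CPM in xiphoid and 9287 to 9782 in articular cartilage (of 7 tested, 4 higher in xiphoid and 0 in articular cartilage). All these cells contain proteasomes, their part in the results below was not tested, and fewer cells of a type and less RNA per cell cannot be told apart in bulk samples.

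Proteasome genes differed little between the cartilages. Of the 47 members tested, the test called 3 as higher in articular cartilage and 5 as higher in xiphoid cartilage, while 39 did not pass (edgeR quasi-likelihood test, Benjamini-Hochberg adjusted p under 0.05 over 11202 genes). Over all genes tested, 49.5% were called, 25% as higher in articular and 24.5% as higher in xiphoid cartilage. The fitted difference was smaller than 1.5-fold for 44 of the 47 members (93.6%) and for 51.2% of all genes tested. The median log2 fold change, articular over xiphoid, was -0.23 for the members and -0.02 for all genes tested, and 34 members were on the xiphoid side (30 with upper-quartile factors). Both articular libraries were above both xiphoid libraries for 9 members, and the reverse held for 22, where the shares over all genes tested were 37.1% and 37.8%. The biological coefficient of variation between libraries of a tissue was 14.1%, and a member that did not pass is not shown to be equal in the 2 tissues.

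**Figure D1:**
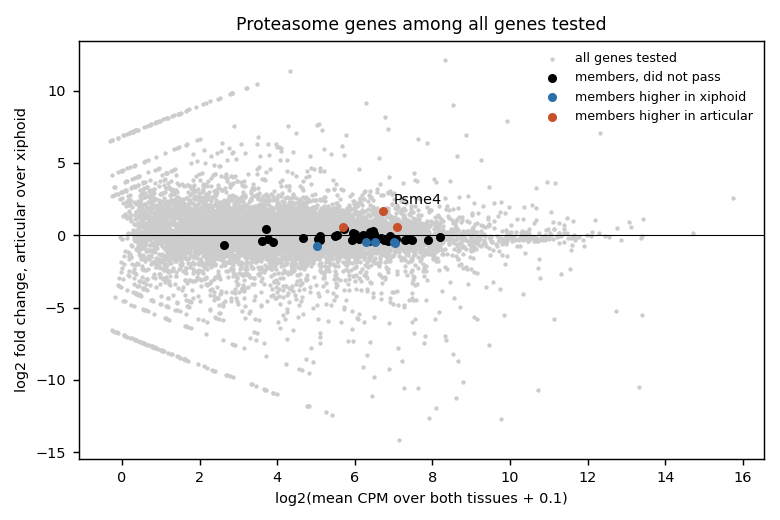
Each point is 1 gene, with the log2 of its mean CPM over both tissues plus 0.1 on the horizontal axis and its log2 fold change, articular over xiphoid, on the vertical axis. The 47 members lie close to the zero line among all 11202 genes tested, and Psme4 stands highest among them at 1.67.

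The member that differed most was Psme4, which encodes a large single-chain activator that caps the core in place of the regulatory particle and is known for the degradation of acetylated histones and for work in the nucleus. It was at 142 and 180 CPM in the articular libraries and at 49.1 and 52.3 CPM in the xiphoid libraries. Both articular libraries were more than 2-fold above either xiphoid library. The means were 161 ± 26.5 and 50.7 ± 2.25 CPM (SD, n = 2), 3.17-fold higher in the articular samples (fitted log2 difference 1.67 with a standard error of 0.17, adjusted p = 5.56e-06). The call held with the other scalings, filters and tools, and the log2 fold change ran from 1.49 to 1.83 when 1 library was left out. Relative to the summed counts of the constitutive core, Psme4 was at 0.0823 and 0.109 in articular and 0.0234 and 0.0261 in xiphoid cartilage. Genes of dividing cells were higher in the same articular libraries, as given above, and their part in this difference was not tested.

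None of the other activators passed the test, which called 49.5% of all genes tested, and no test compared them with Psme4. Psme3, which encodes a nuclear ring activator, was at 92.8 and 102 CPM in articular and 73.3 and 88.0 CPM in xiphoid cartilage (fitted log2 difference 0.27 with a standard error of 0.16), with both articular libraries above both xiphoid ones, and did not pass (adjusted p = 0.17). Psme1 and Psme2 encode the ring activator that interferon gamma induces. Psme1 was at 107 and 115 CPM in articular and 136 and 126 CPM in xiphoid cartilage (adjusted p = 0.207). Psme2 was at 58.3 and 48.5 against 73.2 and 63.4 CPM (adjusted p = 0.095). For both genes, which flank Emc9 in the RefSeq gene order, the xiphoid libraries lay above the articular ones, without passing the test. Psmf1, which encodes an inhibitor of the core, was at 28.1 and 32.0 against 31.0 and 42.0 CPM (adjusted p = 0.255), and its groups overlapped.

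Most genes of the constitutive core sat slightly on the xiphoid side. The core is counted here as 15 genes, the 7 alpha subunits, the copy Psma3l and the 7 constitutive beta subunits. The log2 fold change was below zero for 14 of the 15, from -0.52 to -0.05, and above zero for Psma3, with a median of -0.33, and 4 of the 15 passed the test, all higher in xiphoid cartilage, where 24.5% of all genes tested were called. For 10 of the 15, both xiphoid libraries were above both articular libraries, against 37.8% of all genes tested. The summed level of the 15 genes was 1729 and 1645 CPM in articular and 2099 and 2007 CPM in xiphoid cartilage, 1.22-fold higher in the xiphoid samples, and the groups did not overlap. Scaling with RLE, with upper-quartile factors or by library size alone kept the sum on that side. With the replicate number as a block, 11 of the 15 were called toward xiphoid and 1, Psma3, toward articular cartilage. That fit called 61% of all genes tested, and the labels do not say what a shared number means.

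Among the alpha subunits, which form the gate of the barrel, Psma2, Psma4 and Psma5 were higher in xiphoid cartilage. Psma4 was at 77.6 and 76.7 CPM in articular and 107 and 103 CPM in xiphoid cartilage, 1.36-fold higher in the xiphoid samples (fitted log2 difference -0.44 with a standard error of 0.15, adjusted p = 0.0248). The values were 103 and 114 against 138 and 157 CPM for Psma2 (1.36-fold, adjusted p = 0.0279) and 69.2 and 61.0 against 101 and 81.6 CPM for Psma5 (1.40-fold, adjusted p = 0.0272). In each of the 3 genes the groups did not overlap. Leaving out 1 library leaves 1 sample in its tissue, so the residual spread comes from the other tissue alone. Only effect sizes are given for such fits. The log2 fold change of Psma5 was -0.49 with all libraries and ran from -0.61 to -0.32 when 1 library was left out. The log2 values stayed near those of all libraries for Psma4, at -0.41 when xiphoid replicate 1 was left out and -0.45 for xiphoid replicate 2, and ran from -0.52 to -0.33 for Psma2. DESeq2 gave 0.0513 for Psma4 and 0.0522 for Psma5.

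Psma1, Psma6 and Psma7 did not pass, at log2 fold changes of -0.25, -0.05 and -0.27. Psma3 pointed the other way, at 49.4 and 70.8 CPM in articular and 43.0 and 47.6 CPM in xiphoid cartilage (fitted log2 difference 0.41 with a standard error of 0.19), and did not pass (adjusted p = 0.0946). The lower articular library was just above the upper xiphoid one, and the log2 value was 0.13 without articular replicate 2 and 0.65 without articular replicate 1. Psma3l is listed as a gene like Psma3, and both had estimated counts that were not whole, as arises when reads fit more than 1 gene. Psma3l was at 27.9 and 39.7 against 34.1 and 36.7 CPM (adjusted p = 0.799). Summed, the pair was at 77.2 and 111 CPM in articular and 77.1 and 84.3 CPM in xiphoid cartilage, and the groups overlapped.

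The constitutive beta subunits were on the xiphoid side in 7 of 7 cases, with log2 fold changes from -0.52 to -0.13. Only Psmb7 passed in the main fit, where 24.5% of all genes tested were called toward xiphoid cartilage. With the replicate number as a block, 6 of the 7 passed, where 61% of all genes tested were called. Psmb7, which carries the trypsin-like cutting site, was at 129 and 86.6 CPM in articular and 166 and 143 CPM in xiphoid cartilage (108 ± 29.9 and 154 ± 16.2, SD, n = 2), 1.43-fold higher in the xiphoid samples (fitted log2 difference -0.52 with a standard error of 0.19, adjusted p = 0.0385). Its 2 articular libraries differed from each other by about as much as the tissues did. The log2 fold change was -0.26 without articular replicate 2, -0.83 without articular replicate 1 and -0.39 without xiphoid replicate 1. The call was lost with upper-quartile factors (adjusted p = 0.0653) and with a mean CPM of at least 5 (adjusted p = 0.0518). Psmb1 and Psmb3, which have no cutting site, were the next closest to the threshold, at 217 and 197 against 264 and 260 CPM for Psmb1 (adjusted p = 0.0614) and 91.8 and 111 against 129 and 134 CPM for Psmb3 (adjusted p = 0.0633). Psmb4, the beta subunit with the least difference, was at 302 and 252 against 318 and 289 CPM (log2 fold change -0.13).

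**Figure D2:**
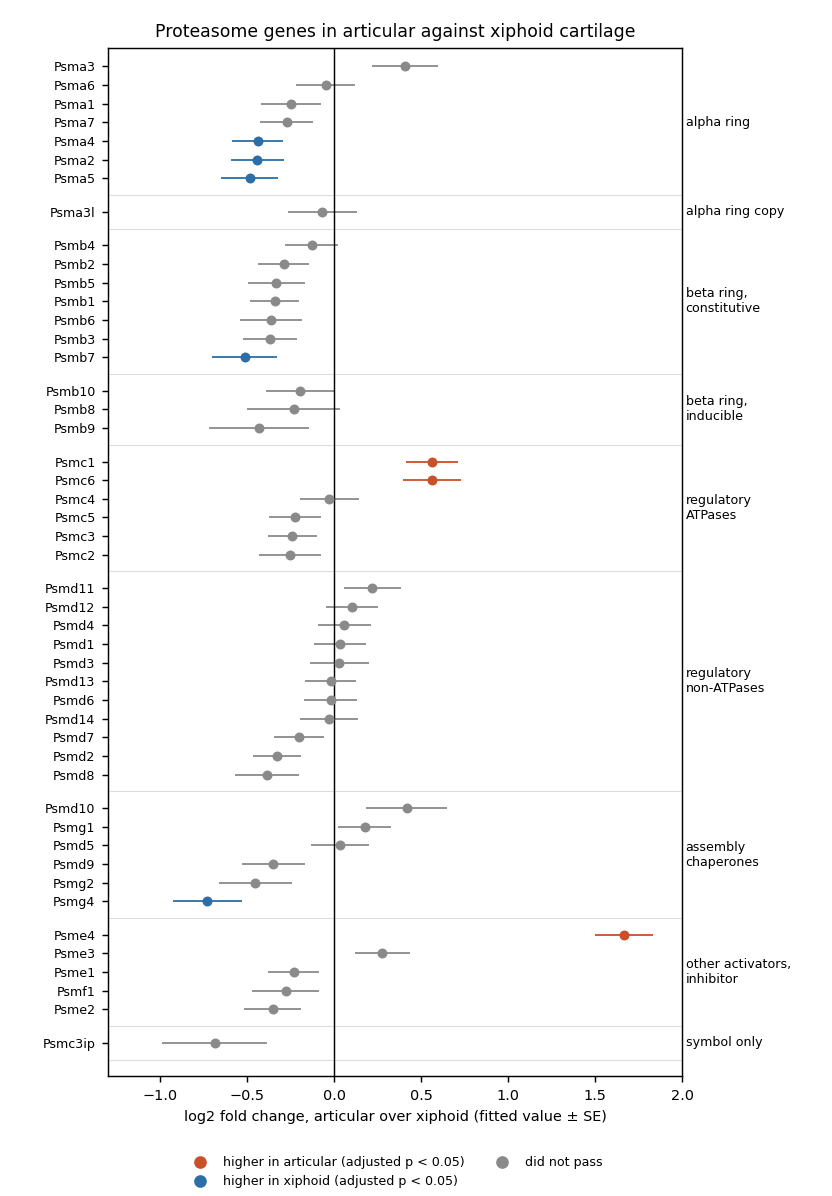
Fitted log2 fold change of each tested member, articular over xiphoid, with bars of 1 SE, grouped by role and coloured by the call at an adjusted p under 0.05. Constitutive core genes lie mostly left of zero, the non-ATPase genes of the regulatory particle lie around zero, and Psme4, Psmc1 and Psmc6 lie to the right.

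None of the 3 inducible subunits passed the test, which called 49.5% of all genes tested. Psmb8, the inducible counterpart of Psmb5 with its chymotrypsin-like site, was at 15.1 and 9.75 CPM in articular and 16.8 and 12.3 CPM in xiphoid cartilage (fitted log2 difference -0.23 with a standard error of 0.27, adjusted p = 0.501). Psmb9, the counterpart of Psmb6 with its caspase-like site, was at 11.8 and 8.73 against 17.3 and 10.4 CPM (fitted log2 difference -0.43 with a standard error of 0.29, adjusted p = 0.232). For both genes the 2 groups of libraries overlapped. Psmb10, the counterpart of Psmb7, was at 26.5 and 20.7 against 27.1 and 27.0 CPM (fitted log2 difference -0.20 with a standard error of 0.19, adjusted p = 0.433). Its xiphoid libraries were above its articular libraries, the upper articular one by under 1 CPM. These differences moved with single libraries: the log2 value of Psmb9 was -0.004 when xiphoid replicate 1 was left out and -0.73 when replicate 2 was, and that of Psmb10 was -0.03 without articular replicate 2 and -0.39 without articular replicate 1. That of Psmb8 was 0.03 without xiphoid replicate 1 and -0.58 without articular replicate 1. The counts behind these values were 76 to 143 for Psmb8, 68 to 147 for Psmb9 and 161 to 231 for Psmb10 per library.

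The balance between each inducible subunit and the one it replaces was read as the log2 ratio of their counts within a library, which does not depend on the scaling of libraries. For Psmb8 to Psmb5 it was -3.35 and -3.65 in articular and -3.50 and -3.68 in xiphoid cartilage, a difference of 0.09 (95% interval -0.66 to 0.84 from the pooled SD). For Psmb9 to Psmb6 it was -3.18 and -3.19 against -2.94 and -3.37, a difference of -0.03 (95% interval -0.94 to 0.89). In these pairs the groups overlapped. For Psmb10 to Psmb7 it was -2.28 and -2.07 against -2.61 and -2.40, a difference of 0.33 toward articular cartilage (95% interval -0.30 to 0.97), where the groups did not overlap. The 2-sided exact permutation test over libraries gave p = 0.667, 1 and 0.33 for the 3 pairs, each 1 after adjustment over the 3, and 0.33 is the smallest value that 2 against 2 libraries allow. The test could therefore not call a shift of any size. The intervals include a shift of more than 1.5-fold either way for Psmb8 and Psmb9, and one of up to 0.97 on the log2 scale toward articular cartilage for Psmb10. Ratios between genes of different length are compared here only between tissues.

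**Figure D3:**
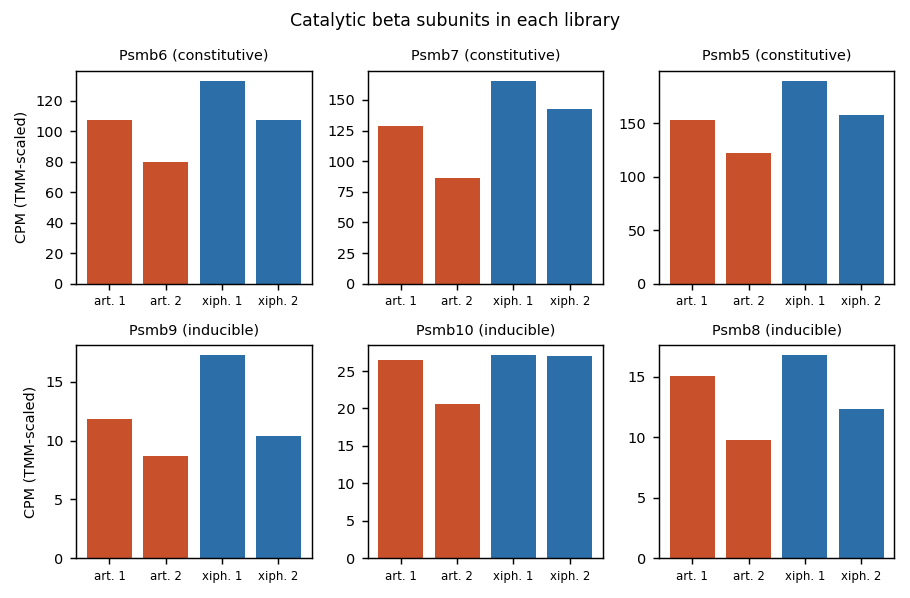
CPM in each of the 4 libraries for the 3 constitutive cutting subunits (upper row) and the inducible subunits that replace them (lower row), with 1 bar per library and a separate vertical scale in each panel. The bars of the inducible subunits stay below 30 CPM, and the means of the 2 tissues differ by less than the libraries of at least 1 of the tissues do.

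White blood cells are rich in inducible subunits, and their markers differed between these libraries. Macrophage and leukocyte markers summed to 274 to 290 CPM in articular and 180 to 186 in xiphoid cartilage (of 12 tested, 5 higher in articular and 2 in xiphoid cartilage). B cell markers summed to 27.9 to 35.1 CPM in articular cartilage against at most 0.235 in xiphoid cartilage, where Cd79b, Vpreb1, Ms4a1 and Pax5 had no count (5 of 5 tested higher in articular cartilage). T and NK cell markers summed to 24.5 to 25.9 against 7.17 to 10.3 CPM (2 of 3 tested higher in articular cartilage), with no count of Nkg7, Cd8a, Cd2 and Cd3e in xiphoid cartilage. Neutrophil markers summed to 178 to 180 against 10.3 to 12.7 CPM (5 of 6 tested higher in articular cartilage), with no count of Camp, Ngp and Elane in xiphoid cartilage. The part of these cells in the values of the inducible subunits was not tested.

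The regulatory particle was nearly even between the tissues. Its 17 members had a median log2 fold change of -0.02, with 10 below and 7 above zero (4 of the 10, Psmc4, Psmd6, Psmd13 and Psmd14, changed sign with upper-quartile factors). The 17 genes summed to 1552 and 1507 CPM in articular and 1586 and 1549 CPM in xiphoid cartilage, where the groups overlapped, and the log2 ratio of the sums turned from -0.04 to 0.01 with upper-quartile factors. Among the ATPases, which unfold the substrate, Psmc1 was at 173 and 150 CPM in articular and 115 and 104 CPM in xiphoid cartilage, 1.48-fold higher in the articular samples (fitted log2 difference 0.56 with a standard error of 0.15, adjusted p = 0.00831). Psmc6 was at 55.1 and 68.5 against 41.0 and 42.7 CPM, also 1.48-fold higher (fitted log2 difference 0.56 with a standard error of 0.17, adjusted p = 0.0147). In both genes the articular libraries were above the xiphoid ones, and 25% of all genes tested were called in that direction. When 1 library was left out, the log2 fold change ran from 0.45 to 0.66 for Psmc1 and from 0.40 to 0.71 for Psmc6. The other 4 ATPases, Psmc2, Psmc3, Psmc4 and Psmc5, had log2 fold changes from -0.25 to -0.03 and did not pass, so the 6 subunits of 1 ring were not all on 1 side.

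None of the 11 non-ATPase subunits passed, and the fitted difference was smaller than 1.5-fold for all 11. Of all genes tested, 49.5% were called and 51.2% had a fitted difference smaller than 1.5-fold. Psmd14, the deubiquitinase of the particle, was at 40.9 and 47.6 CPM in articular and 42.5 and 47.9 CPM in xiphoid cartilage. Psmd4, a ubiquitin receptor, was at 98.4 and 85.0 against 91.2 and 84.9 CPM. In both genes the tissues overlapped. The scaffold subunit Psmd1 was at 74.1 and 75.5 against 69.3 and 77.1 CPM, while its partner Psmd2 was at 157 and 157 against 192 and 203 CPM (fitted log2 difference -0.33 with a standard error of 0.14), with no overlap but an adjusted p of 0.0695. Psmd8, a subunit of the lid, was at 85.1 and 58.3 against 92.4 and 95 CPM (adjusted p = 0.103). Psmd11, another lid subunit, was the furthest on the articular side, at 79.1 and 101 against 77.8 and 77.2 CPM (adjusted p = 0.29).

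Within each library the summed counts of the constitutive core were divided by those of the regulatory particle. The articular libraries had ratios of 1.11 and 1.09, and the xiphoid libraries 1.32 and 1.30. The xiphoid values were 1.19-fold those of articular cartilage, and the difference between tissues exceeded that between libraries of 1 tissue by several times (1.10 ± 0.0161 and 1.31 ± 0.0196, SD, n = 2). Over the 5 core and 11 regulatory members without an annotated copy, with Psma3l also left out, an alternative added after seeing the data, the xiphoid ratio was 1.22-fold the articular one. No test was run on this sum over members. The ratio depends on neither library size nor scaling, and it counts transcripts of unlike lengths, so it gives no number of particles. The alpha to beta ratio, with Psma3l counted among the alpha genes, overlapped between the tissues, at 0.629 and 0.805 against 0.647 and 0.72.

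**Figure D4:**
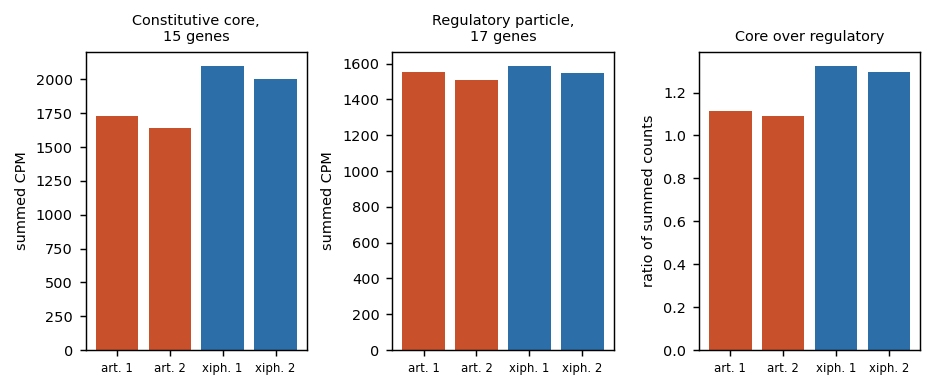
Summed CPM of the 15 constitutive core genes, with the copy Psma3l among them (left), and the 17 regulatory particle genes (middle) in each library, and the ratio of their summed counts (right), with 1 bar per library. The core sums are 1729 and 1645 in articular and 2099 and 2007 in xiphoid cartilage, and the regulatory sums stay between 1507 and 1586.

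Of the 6 assembly chaperones, 1 passed, where 49.5% of all genes tested were called. Psmg4, which with a partner helps to place alpha subunits in the forming ring, was at 26.7 and 22.3 CPM in articular and 46.5 and 34.6 CPM in xiphoid cartilage, 1.66-fold higher in the xiphoid samples (fitted log2 difference -0.73 with a standard error of 0.20, adjusted p = 0.00916). The groups did not overlap, but without xiphoid replicate 1 the log2 fold change was -0.49, against -0.73 with all libraries. Psmg4 has 3 annotated copies. Of the other called members, Psma2, Psmb7 and Psmc6 have 2 each, Psma5 has 1, and Psma4, Psmc1 and Psme4 have 0. Psmg1 and Psmg2 form a dimer that starts the alpha ring, and they lay on opposite sides. Psmg1 was at 65.9 and 66.2 against 61.5 and 55.4 CPM (adjusted p = 0.366) and Psmg2 at 12.3 and 12.7 against 17.2 and 17.1 CPM (adjusted p = 0.0953). The chaperones of the ATPase ring, Psmd5, Psmd9 and Psmd10, had log2 fold changes of 0.03, -0.35 and 0.42, and none of the 3 passed. Psmc3ip was at 4.66 and 4.62 against 6.93 and 8.08 CPM (adjusted p = 0.0762).

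Of 11 tested proteasome partners outside the symbol rule, 4 (36.4%, against 25% of all genes tested) were higher in articular and 2 (18.2%, against 24.5%) in xiphoid cartilage. Fbxo7, a ubiquitin ligase subunit that binds the proteasome inhibitor, was at 22.1 and 22.1 against 37.6 and 41.8 CPM, 1.79-fold higher in the xiphoid samples (adjusted p = 0.0018). Pomp, the maturation factor of the core, was at 78.4 and 57.8 against 97.9 and 98.3 CPM, 1.44-fold higher in the xiphoid samples (adjusted p = 0.0233). Its log2 fold change was -0.53 with all libraries, -0.32 without articular replicate 2 and -0.76 without articular replicate 1. Pomp lay on the same side as most core genes, and a link between them was not tested. Usp14, a deubiquitinase of the regulatory particle, was at 44.8 and 64.2 against 33.1 and 38.9 CPM, 1.51-fold higher in the articular samples (adjusted p = 0.0235). Without articular replicate 2 its log2 fold change was 0.32, against 0.60 with all libraries.

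Ubiquitin and delivery genes were mostly even. Of 15 tested, 1 passed in each direction (6.67%, against 25% and 24.5% of all genes tested). Uba6, a ubiquitin-activating enzyme, was at 16.1 and 23.5 CPM in articular and 4.58 and 6.43 CPM in xiphoid cartilage, 3.61-fold higher in the articular samples (adjusted p = 1.82e-04). The ubiquitin gene Ubb was at 843 and 705 against 1098 and 992 CPM, 1.35-fold higher in the xiphoid samples (adjusted p = 0.0355), which was lost with upper-quartile factors (0.0633). Its log2 fold change ran from -0.57 to -0.31 when 1 library was left out. The list's median log2 fold change was 0.03.

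Of 6 tested regulators of proteasome genes, 3 were higher in articular cartilage (25% of all genes tested were) and 0 in xiphoid cartilage (24.5% of all genes tested), with a median log2 fold change of 0.67. Ddi2, the protease that activates the transcription factor of proteasome genes, was at 93.1 and 94.2 against 51.5 and 47.0 CPM, 1.90-fold higher in the articular samples (adjusted p = 3.09e-04). Maff and Mafg encode small partners of that factor. Maff was at 24.7 and 22.6 against 10.1 and 7.94 CPM (adjusted p = 2.75e-04), and Mafg at 12.2 and 19.5 against 6.82 and 2.60 CPM (adjusted p = 0.00351). The fitted log2 difference of Mafg was 1.72, and ran from 1.22 without xiphoid replicate 2 to 2.60 without xiphoid replicate 1. For these 3 genes the groups did not overlap. Mafk, another small partner, was at 39.9 and 32.2 against 32.8 and 25.7 CPM (adjusted p = 0.221), and Ngly1, an enzyme that removes sugar chains from that factor, at 49.2 and 47.9 against 47.5 and 49.3 CPM (adjusted p = 0.979), and in both the groups overlapped. Nfe2l2, a related stress factor, was at 32.4 and 43.3 against 26.0 and 30.5 CPM (adjusted p = 0.0934), and Nfe2l1 was not analysed here.

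Genes of MHC class I peptide processing, which use the peptides of the proteasome, were called about as often as all genes. Of 11 tested, 2 (18.2%, against 25% of all genes tested) were higher in articular and 3 (27.3%, against 24.5%) in xiphoid cartilage. B2m, the light chain of MHC class I, was at 468 and 521 CPM in articular and 1013 and 1020 CPM in xiphoid cartilage, 2.05-fold higher in the xiphoid samples (adjusted p = 1.05e-04). The MHC class I genes RT1-A2 and RT1-A1 of the list did not pass, at log2 fold changes of -0.13 and 0.07, and their groups overlapped. Canx, a chaperone of the endoplasmic reticulum, was 2.11-fold higher in the articular samples (adjusted p = 1.50e-04). Psmb8 and Psmb9 lie beside the peptide transporter genes in the RefSeq gene order, Psmb8 between Tap2 and Tap1 and Psmb9 next to Tap1. Tap1 was at 13.9 and 12.4 against 13.2 and 17 CPM (adjusted p = 0.521), where the groups overlapped. Tap2 was at 13.6 and 7.32 against 19.6 and 17.8 CPM (adjusted p = 0.0252), and its call was lost with DESeq2 (0.058). Its log2 fold change was -0.83 with all libraries, -0.46 without articular replicate 2 and -1.35 without articular replicate 1.

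Of 25 tested genes of interferon signalling and response, 10 (40%, against 25% of all genes tested) were higher in articular and 2 (8%, against 24.5%) in xiphoid cartilage, with a median log2 fold change of 0.29. Jak2, a kinase of the interferon gamma receptor, was at 76.3 and 84.1 against 23.0 and 26.8 CPM, 3.22-fold higher in the articular samples (adjusted p = 5.49e-06). Mx1, an antiviral gene induced by interferons, was at 12.6 and 10.5 against 0.823 and 2.74 CPM (adjusted p = 2.13e-04), and Irf7, an interferon regulatory factor, at 41.6 and 48.8 against 19.4 and 20.9 CPM (adjusted p = 2.06e-04). The 2 higher in xiphoid cartilage were Ifngr2, a chain of the interferon gamma receptor, at 26.3 and 26.8 against 35.0 and 43.1 CPM (adjusted p = 0.023), and Ifi47, an interferon-induced GTPase, at 6.34 and 6.93 against 12.3 and 12.5 CPM (adjusted p = 0.0109). With DESeq2 both calls were lost (adjusted p = 0.0685 and 0.0528). The log2 fold change of Ifngr2 was -0.55 with all libraries and -0.39 without xiphoid replicate 2. Irf1, which is known to activate the genes of the inducible subunits, was at 10.8 and 14.4 against 9.40 and 14.0 CPM, and the tissues overlapped (adjusted p = 0.765). B cell markers (5 of 5 tested) and neutrophil markers (5 of 6 tested) were higher in the same articular libraries. Macrophage and leukocyte markers were mixed, with 5 of 12 tested higher in articular and 2 in xiphoid cartilage. The part of these cells in the interferon gene differences was not tested.

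**Figure D5:**
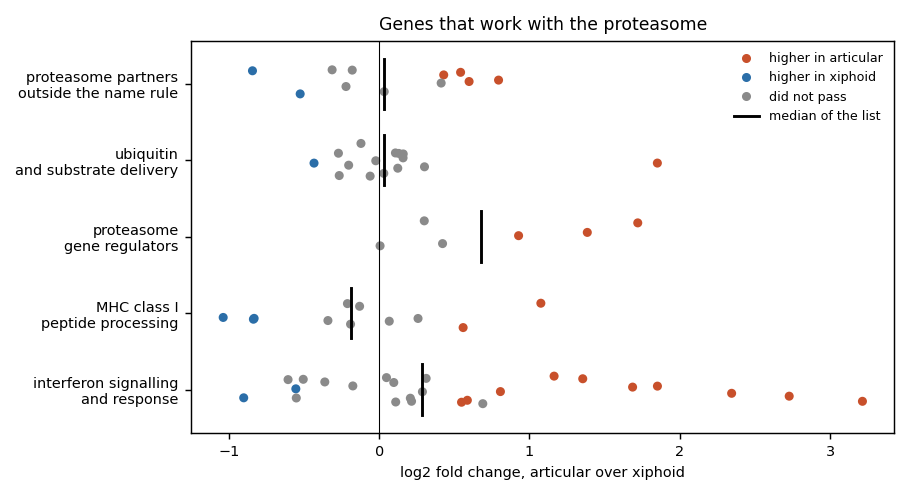
Log2 fold change, articular over xiphoid, of each tested gene in 5 lists, 1 point per gene, coloured by the call, with a black bar at the median of the list and points spread vertically for legibility only. The medians run from -0.19 for MHC class I peptide processing to 0.67 for proteasome gene regulators.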

How the data were processed

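RNA was sequenced from 2 libraries each of articular and xiphoid cartilage. The authors deposited 1 table of expected counts per gene, not normalized, per the file headers. The submitters' processing notes list RSEM 1.2.12, Bowtie2 2.2.6, StringTie 1.2.1, HISAT2 2.0.4 and the rn6 build without roles. Whether strand was used in counting is not given in the sources used.

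Counts were rounded, filtered with filterByExpr (11202 of 13554 genes tested), scaled by TMM and tested for tissue with edgeR 4.0.16 in R 4.3.3 (glmQLFit, robust, 2 residual degrees of freedom), adjusted by Benjamini-Hochberg over all genes tested. P-values are 2-sided. Standard errors are the size of the log2 fold change over the square root of F. The pipeline was tested on simulated data, where 5 of 50 genes changed 1.5-fold and 36 of 50 changed 2-fold were recovered. Far fewer genes changed there than were called here, so these rates need not hold for the real data. Members follow the symbol rule. Of each pathway list, called genes with the lowest adjusted p, up to 4, were eligible to be named. Tap1, Tap2, RT1-A1, RT1-A2, Irf1, Nfe2l2, Mafk, Ngly1, Ifngr2 and Ifi47 were named after their values were seen. Members and lists were chosen with earlier results of these data known. Alternatives were other scalings, filters and tools (DESeq2 1.42.0, limma-voom 3.58.1), a replicate block and leaving out each library.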

Additional observations from a re-analysis of the deposited data

How the results depend on the processing

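With 2 libraries per tissue, depth and replicate number limit what can be called. RLE factors, library sizes alone, limma-voom, no low-count filter and leaving out 78 markers of other cell types called the same 8 members. Leaving out the markers removes their rows alone, and reads from other cells stay in the members' counts. Higher in xiphoid cartilage were 5 members, against 3 with DESeq2. Of all genes tested, 37.7% were called with DESeq2 and 49.5% in the main fit. Higher in articular cartilage were 3, also with DESeq2. Fits with 1 library left out are given by effect size only. With the replicate number as a block, 5 members were called toward articular and 18 toward xiphoid cartilage, and 6828 genes in all (61%) were called; of these members, the core held 1 toward articular and 11 toward xiphoid cartilage of 15 (6 of the 7 beta genes), the regulatory particle 2 and 4 of 17, and the inducible subunits 0 of 3. The labels give only a number. Deviations of same-numbered libraries correlated at 0.30 over all genes and 0.69 over the 47 members, across genes, which are not independent replicates. Of the other pathway genes, 20 were higher in articular cartilage (12 to 20 when 1 library was left out), and 8 in xiphoid cartilage (5 with DESeq2, 5 to 11 when 1 library was left out). The members' median log2 fold change of -0.232 was -0.226 with RLE factors, -0.182 with upper-quartile factors, -0.223 with no low-count filter, -0.211 with a mean CPM of at least 5, and -0.225 to -0.155 when 1 library was left out. The core to regulatory ratio, xiphoid over articular, was 1.22 over members without an annotated copy (Psma3l left out) and 1.14 without Psmb4, Psmc1 and Psmc6, both added after seeing the data, and 1.17 to 1.2 when 1 library was left out. Only uncalled genes changed sign. With upper-quartile factors the log2 fold change became 0.017 for Psmc4, 0.024 for Psmd13, 0.014 for Psmd14 and 0.023 for Psmd6, and with a mean CPM of at least 5 it became 0.000221 for Psmd13 and 6.1e-05 for Psmd6. When 1 library was left out it ran from -0.26 to 0.14 for Psma6, -0.58 to 0.043 for Psmb8, -0.23 to 0.16 for Psmc4, -0.034 to 0.12 for Psmd1, -0.064 to 0.021 for Psmd13, -0.14 to 0.077 for Psmd14, -0.13 to 0.19 for Psmd3, -0.050 to 0.16 for Psmd4, -0.10 to 0.074 for Psmd6, -0.090 to 0.18 for Psmd5, -0.34 to 0.17 for Psma3l, -0.36 to 0.013 for Tap1 and -0.15 to 0.43 for Irf1. The cause of these shifts was not tested.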
